A study of Mus musculus with 11 samples.

Results

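The expression of 9 genes that handle ammonia in the liver was examined in 11 *ob/ob* mice with diet-induced metabolic dysfunction–associated steatohepatitis, of which 4 received INT-767 and 7 received vehicle. The genes were chosen by name for their function: the urea cycle enzymes *Nags*, *Cps1*, *Otc*, *Ass1* and *Asl*, the mitochondrial carriers *Slc25a15* and *Slc25a13*, the liver glutaminase *Gls2* and the glutamine synthetase *Glul*. These genes, and the lists set beside them below, were chosen with earlier results of these data known. The numbers called among them are therefore descriptions and no independent test. All 9 were found among the 46603 genes of the count table and all 9 passed the filter on low counts, which 13880 genes passed.

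Both groups were male mice that lack leptin (Lep ob/ob), were 5 to 6 weeks old when the AMLN diet (high in fat, with added fructose and cholesterol) was started, and had been fed it for 15 weeks before dosing. INT-767 is a synthetic bile acid derivative and an agonist of the nuclear receptor FXR and the membrane receptor TGR5. It was given at 10 mg/kg by gavage once daily for 8 weeks on the same diet, and the controls received its vehicle. No lean or chow-fed mice, no second dose and no agonist of only one of the receptors are among these 11 livers. Each library was made from a piece of the left lateral lobe, so that fewer cells of a type and less RNA per cell cannot be told apart. The vehicle libraries held 7966963 to 15295230 counts, with a median of 10878327 over 7 mice, and the INT-767 libraries 7381211 to 16022459, with a median of 12034846.5 over 4 mice. The smallest count of any of the 9 genes in any mouse was 299, for *Nags*.

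In the hepatocyte, ammonia released from amino acids enters the urea cycle in the mitochondrion. NAGS makes N-acetylglutamate, the obligatory activator of CPS1, CPS1 makes carbamoyl phosphate from ammonia and bicarbonate, and OTC joins it to ornithine to form citrulline. In the cytosol, ASS1 and ASL turn citrulline and aspartate into arginine, the precursor of urea. SLC25A15 exchanges ornithine for citrulline across the inner mitochondrial membrane, and SLC25A13 exports aspartate. The urea cycle and GLS2, which frees ammonia from glutamine, belong to periportal hepatocytes, whereas GLUL, which fixes remaining ammonia as glutamine, is restricted to hepatocytes around the central vein.

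The sequence before the transcription start is shown for 4 of the genes, a pair that rose with INT-767 (*Otc* and *Slc25a15*) and a pair that did not pass the test (*Nags* and *Glul*), because FXR and other nuclear receptors bind copies of the half-site AGGTCA, in the case of FXR often as an inverted repeat. RefSeq promoter windows on GRCm38.p6 were at hand for 6 of the 9 genes, 7 windows in all, and these are the 4 genes whose 200 bases before the start meet no exon of the gene itself. Each is written 5′ to 3′ on the strand of the gene, with the half-site and the GC box GGGCGG, on either strand, in capitals.
Otc, chrX:10252105-10252304, plus strand: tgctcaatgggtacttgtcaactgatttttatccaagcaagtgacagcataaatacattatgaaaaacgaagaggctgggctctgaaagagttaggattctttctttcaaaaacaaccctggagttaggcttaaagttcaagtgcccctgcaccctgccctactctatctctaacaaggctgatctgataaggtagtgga
Slc25a15, chr8:22398622-22398821, minus strand: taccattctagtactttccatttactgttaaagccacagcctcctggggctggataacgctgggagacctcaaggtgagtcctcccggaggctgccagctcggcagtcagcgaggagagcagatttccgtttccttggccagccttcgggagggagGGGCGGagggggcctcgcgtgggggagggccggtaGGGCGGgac
Nags, chr11:102145313-102145512, plus strand: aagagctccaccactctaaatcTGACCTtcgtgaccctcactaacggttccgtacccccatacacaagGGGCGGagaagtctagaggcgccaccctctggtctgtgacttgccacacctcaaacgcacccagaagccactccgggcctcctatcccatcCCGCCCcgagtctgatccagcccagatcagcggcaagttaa
Glul, chr1:153899729-153899928, plus strand: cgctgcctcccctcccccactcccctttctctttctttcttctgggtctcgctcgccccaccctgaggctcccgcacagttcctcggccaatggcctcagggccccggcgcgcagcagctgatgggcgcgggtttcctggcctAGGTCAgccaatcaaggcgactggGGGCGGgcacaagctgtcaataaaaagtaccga

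Within 250 bases before the start, the half-site was present once in *Glul*, beginning 57 bases before the start, and once in *Nags*, on the reverse strand and 178 bases before the start. It was present in neither *Otc*, *Ass1* nor *Slc25a15*, the called genes with a window. Of all 32851 RefSeq promoter windows of the same length, 14% hold it. The GC box was present in 5 of the 7 windows, compared with 32.7% of all windows. None of the 7 held TATAAA (12.4% of all windows), the inverted repeat of the half-site with a spacer of 1 base (IR-1, 0.00609%), which overlaps the half-site itself, or the cyclic AMP response element TGACGTCA (1.55%). These are matches of letters in a short window and no measurement of binding.

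The level of a gene is given as CPM, its count relative to the library total after scaling by the TMM factors of edgeR, for comparisons of 1 gene between mice. A gene was called when its Benjamini-Hochberg adjusted *p* over all 13880 genes, from the quasi-likelihood test of edgeR, was under 0.05. Fold changes are INT-767 over vehicle, on the log2 scale, with their standard error (SE). The CPM of each gene were also compared by the Mann-Whitney test, exact and two-sided, and with 7 against 4 mice it cannot give a *p* lower than 0.00606. Gene positions and exons are those of GENCODE M21 on GRCm38.

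Before the comparison, the libraries were examined for samples that stand apart. The first principal component of log2 CPM over the tested genes held 58.7% of the variance, and vehicle mice 1 and 7 had scores of −41.2 and −19.0, whereas the other 5 vehicle mice had scores from 18.2 to 62.0. The INT-767–treated mice 1, 2, 3 and 4 had scores of 1.54, −73.2, −7.06 and −90.3, so that vehicle mice 1 and 7 lay within their range. The labels give no batch or other property that sets these mice apart. The results are therefore also given without vehicle mice 1 and 7, an alternative chosen after seeing the data. Leaving out controls that lay within the range of the treated mice can by itself widen the difference between the groups. Fold changes, calls and adjusted *p* from these edgeR fits are therefore descriptions and no added support.

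Some, but not all, of the 9 genes were expressed at higher levels in the livers of INT-767–treated mice. Of the 9, 5 were called higher (*Otc*, *Ass1*, *Asl*, *Slc25a15* and *Gls2*) and none lower, against 5.04% of all tested genes called higher, 4.68% called lower and 9.72% called in either direction. At an unadjusted *p* under 0.05 in the edgeR fit, 7 of the 9 were higher and 0 lower, whereas 17.4% and 15.6% of all tested genes were, 32.9% together. The median log2 fold change of the 9 genes was 1.04, compared with −0.01 over all tested genes. In 3 of the 9 (*Ass1*, *Asl* and *Gls2*) every treated mouse was above every vehicle mouse, which was so for 3.87% of the tested genes. In 0 of the 9 was every treated mouse below, compared with 3.65% of the tested genes, and 7.51% had no overlap in either direction. The Mann-Whitney *p* was under 0.05 for 7 of the 9, compared with 23.5% of all tested genes in either direction. Without vehicle mice 1 and 7, the number called higher was again 5, but 19.8% of all genes were then called higher and 15.8% lower, so that this count stands against a larger share than in the comparison of all 11 mice. *Ass1*, *Asl* and *Gls2* then had log2 fold changes of 1.42, 1.02 and 1.46 (adjusted *p* = 0.00464, 0.00635 and 0.00223 in edgeR), whereas *Nags*, *Cps1* and *Slc25a13*, at 0.57, 0.63 and 0.11, were not called (0.0845, 0.0647 and 0.64).

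**Figure D1:**
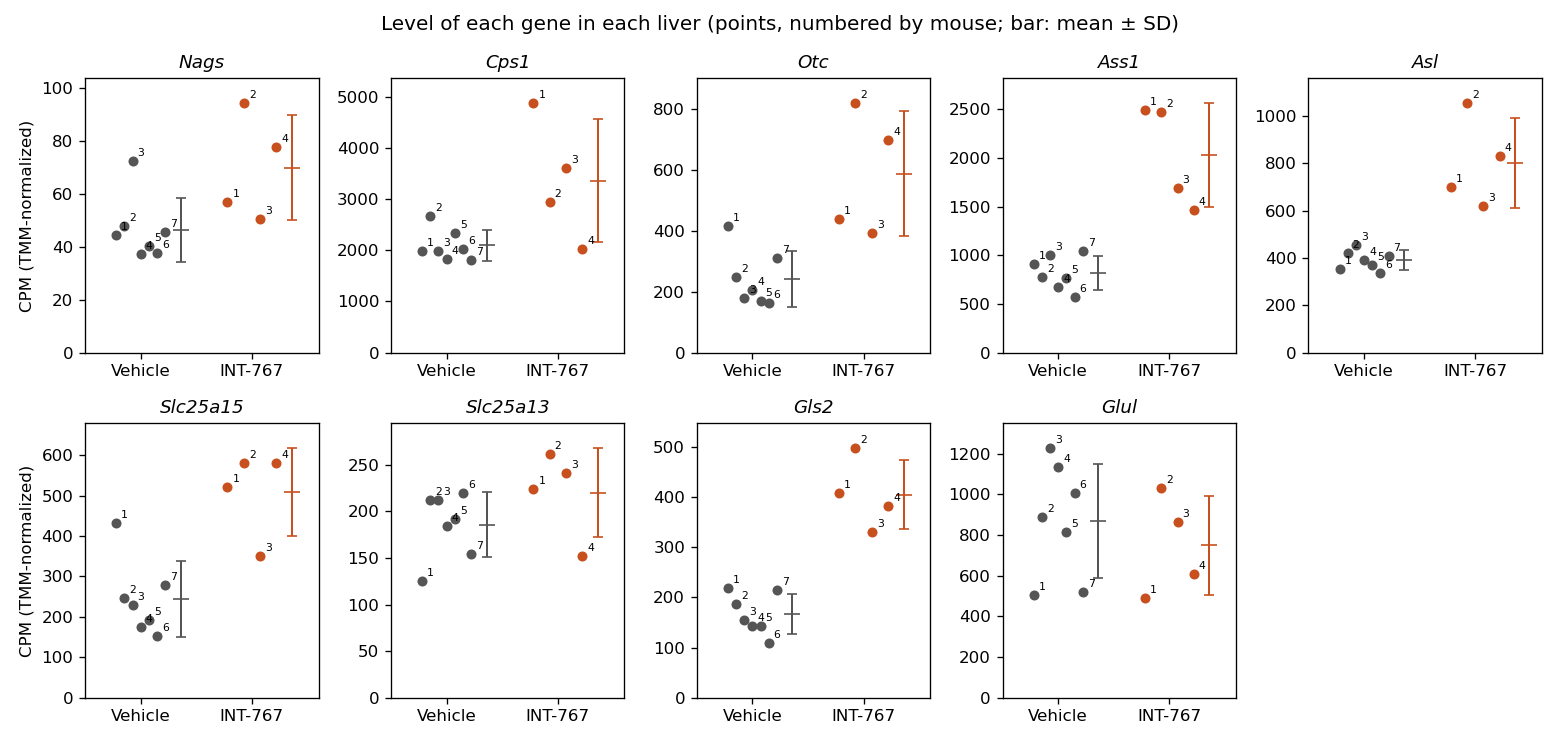
TMM-normalized CPM (y axis, linear, from 0) of the 9 genes in each of 7 vehicle and 4 INT-767 livers, 1 panel per gene; points are mice, numbered, and the bar is the mean ± SD. *Ass1*, *Asl* and *Gls2* had no overlap between the groups, whereas no treated mouse was above the highest vehicle mouse for *Glul*.

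Of the enzymes that bring ammonia into the cycle, *Otc* was called higher, whereas *Nags* and *Cps1* did not pass the test. The differences between these genes were not tested, and their intervals overlap. *Nags* (chr11:102145513-102149477, plus strand, 4 exons) was at 37.3 CPM in the lowest, 44.5 in the median and 72.4 in the highest vehicle mouse, and at 56.9, 94.2, 50.7 and 77.9 CPM in INT-767–treated mice 1 to 4. Only 2 of the 4 treated mice exceeded the highest vehicle mouse, mouse 3. Its log2 fold change was 0.59 (SE 0.21, 95% CI 0.13 to 1.05), with an adjusted *p* of 0.0883 in edgeR and an exact Mann-Whitney *p* of 0.0242, and without vehicle mouse 3 it was called (0.73, adjusted *p* = 0.0414 in edgeR). Of its exon bases, 15.6% lie opposite exons of the antisense gene *Gm11586*.

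*Cps1*, the rate-limiting enzyme and among the most abundant proteins of the mitochondrial matrix, lies at chr1:67123026-67231259 on the plus strand and has 38 exons. Its level ranged from 1808 to 2677 CPM in vehicle mice, with a median of 1981, and was 4871, 2942, 3611 and 2019.6 CPM in treated mice 1 to 4. Treated mouse 4 sat among the vehicle mice, whereas the other 3 were above all of them. The log2 fold change was 0.68 (SE 0.22, 95% CI 0.22 to 1.15), with an adjusted *p* of 0.0619 in edgeR and an exact Mann-Whitney *p* of 0.0424. Without treated mouse 4, *Cps1* was called (log2 fold change 0.86, adjusted *p* = 0.0215 in edgeR), whereas without treated mouse 1 the log2 fold change was 0.45 (adjusted *p* = 0.117 in edgeR).

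*Otc* (chrX:10252305-10321024, plus strand, 10 exons) was at 164 to 416 CPM with vehicle (median 205) and at 438, 819, 393 and 699 CPM with INT-767. Vehicle mouse 1 had the highest control value and vehicle mouse 7 the next, at 312 CPM, and only treated mouse 3 was below vehicle mouse 1. *Otc* changed by 1.28 on the log2 scale (SE 0.29), with an adjusted *p* of 0.0199 in edgeR and an exact Mann-Whitney *p* of 0.0121. Without vehicle mice 1 and 7 it was 1.6 (adjusted *p* = 0.00365 in edgeR), and without treated mouse 2 the call was lost (1.06, adjusted *p* = 0.0929 in edgeR).

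The cytosolic enzymes *Ass1* and *Asl* both rose, without overlap between the groups. *Ass1* (chr2:31470207-31520672, plus strand, 16 exons) was at 569 CPM in the lowest, 776 in the median and 1046 in the highest vehicle mouse, and at 2488, 2476, 1692 and 1461 CPM in treated mice 1 to 4. Every treated mouse was above every control. *Ass1* changed by 1.31 on the log2 scale (SE 0.21, 95% CI 0.86 to 1.76), with an adjusted *p* of 0.0045 in edgeR and an exact Mann-Whitney *p* of 0.00606. Part of *Ass1* (32.6% of the 75-base windows of its transcripts) is also found in the processed pseudogene *Gm5424*, so that reads may have been split between them. *Gm5424* had between 1.01% and 1.34% of the *Ass1* count in each of the 11 mice.

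*Asl* (chr5:130011258-130029247, minus strand, 16 exons) varied least among the controls, from 334 to 453 CPM with a median of 392, and was at 699.8, 1054, 620.3 and 831 CPM with INT-767. The lowest treated mouse, mouse 3, was above the highest vehicle mouse. *Asl* changed by 1.04 on the log2 scale (SE 0.16, 95% CI 0.69 to 1.39), with an adjusted *p* of 0.00403 in edgeR and an exact Mann-Whitney *p* of 0.00606.

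Of the carriers, *Slc25a15* was called and *Slc25a13* was not; the difference between them was not tested, and their intervals overlap. *Slc25a15*, the ornithine carrier (chr8:22375551-22398597, minus strand, 6 exons), was at 152 to 433 CPM with vehicle (median 229.98) and at 521, 580.3, 351 and 581 CPM with INT-767. Vehicle mouse 1 was the highest control, and only treated mouse 3 was below it. The log2 fold change was 1.06 (SE 0.26, 95% CI 0.49 to 1.63), with an adjusted *p* of 0.0283 in edgeR and an exact Mann-Whitney *p* of 0.0121, and it was called in 5 of the 11 fits that left out 1 mouse. The call was lost without any of vehicle mice 3 to 6 or treated mice 2 or 4, with adjusted *p* in edgeR of 0.0529 to 0.106. Without vehicle mice 1 and 7 the log2 fold change was 1.35 (adjusted *p* = 0.00375 in edgeR). *Slc25a13*, the aspartate carrier (chr6:6041218-6217173, minus strand, 18 exons), was at 125 to 220.2 CPM with vehicle (median 192) and at 224, 262, 242 and 153 CPM with INT-767. Treated mouse 4 was among the low controls, whereas the other 3 were above every vehicle mouse. The log2 fold change of 0.24 (SE 0.19, 95% CI −0.17 to 0.66) was not called (adjusted *p* = 0.368 in edgeR, exact Mann-Whitney *p* = 0.164), and a rise of up to 0.66 remained within its interval. Without treated mouse 4 the log2 fold change was 0.38 and without treated mouse 2 it was 0.14, neither of them called (adjusted *p* = 0.23 and 0.711 in edgeR).

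Of the enzymes at the start and end of the glutamine cycle between periportal and pericentral hepatocytes, *Gls2* was called and *Glul* was not. *Gls2* (chr10:128194457-128210004, plus strand, 18 exons) was at 109.9 CPM in the lowest, 156 in the median and 218 in the highest vehicle mouse, and at 409.5, 498, 332 and 383 CPM with INT-767. No treated mouse was within the range of the controls. *Gls2* changed by 1.28 on the log2 scale (SE 0.20, 95% CI 0.85 to 1.70), with an adjusted *p* of 0.00403 in edgeR and an exact Mann-Whitney *p* of 0.00606. Of its exon bases, 2.79% lie opposite *Spryd4*.

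*Glul* (chr1:153899944-153909723, plus strand, 7 exons) was at 504 to 1226 CPM with vehicle (median 888) and at 491, 1032, 862 and 610.2 CPM with INT-767. The groups lay over each other, and vehicle mice 1 and 7 were the lowest controls. For *Glul* the log2 fold change was −0.22 (SE 0.29, 95% CI −0.83 to 0.40), with an adjusted *p* of 0.599 in edgeR and an exact Mann-Whitney *p* of 0.527, and without vehicle mice 1 and 7 it was −0.44 (adjusted *p* = 0.156 in edgeR). With 1 mouse left out it was between −0.42 (without treated mouse 2) and −0.05 (without treated mouse 1) and was not called. The ratio of *Gls2* to *Glul*, each per kilobase of exon, was between 0.105 and 0.414 in the vehicle mice and was 0.797, 0.462, 0.368 and 0.601 in the treated mice. Vehicle mice 1 (0.414) and 7 (0.398) had ratios above that of treated mouse 3.

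**Figure D2:**
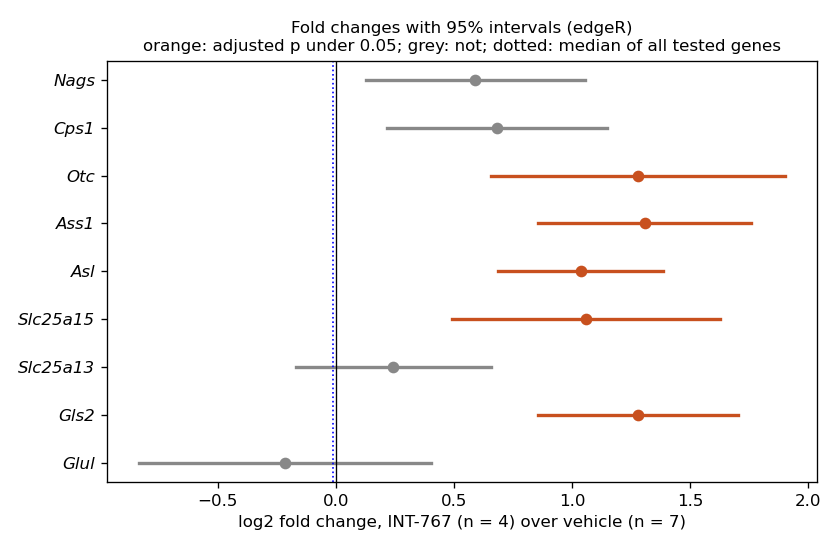
Fitted log2 fold change (x axis) of each of the 9 genes (y axis), INT-767 over vehicle, with its 95% confidence interval as a bar. Orange points and bars have an edgeR adjusted *p* under 0.05, and grey ones do not. The called genes lie between 1.04 (*Asl*) and 1.31 (*Ass1*), and the intervals of *Slc25a13* and *Glul* include 0.

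Levels of different genes were compared as CPM per kilobase of exon (RPKM). In vehicle mice the order was *Cps1* (377 ± 56.0, SD, n = 7), *Ass1* (339.6 ± 71.8), *Glul* (262 ± 84.8), *Asl* (80.8 ± 8.59), *Otc* (57.1 ± 21.97), *Slc25a13* (49.0 ± 9.16), *Gls2* (48.1 ± 11.7), *Slc25a15* (43.3 ± 16.8) and *Nags* (16.4 ± 4.27). Neighbours from *Cps1* to *Glul* overlapped in their ranges over mice, as did neighbours from *Asl* to *Slc25a15*, so that their order is not resolved. *Glul* did not overlap *Asl*, and *Nags* was below *Slc25a15* in every mouse. With INT-767, the means were 841 RPKM for *Ass1*, 605 for *Cps1*, 225 for *Glul*, 166 for *Asl*, 139 for *Otc*, 117 for *Gls2*, 90.3 for *Slc25a15*, 58.0 for *Slc25a13* and 24.6 for *Nags*. *Nags*, which makes a cofactor and no intermediate of the cycle, was the lowest of the 9 in both groups.

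Summed over the 5 enzymes, expression was 3126 to 4172 CPM in vehicle mice and 8554, 7386, 6368 and 5089 CPM in treated mice 1 to 4. Although *Nags*, *Cps1* and *Otc* overlapped between the groups, the sums did not. The 9 genes together held between 0.461% and 0.571% of the normalized counts with vehicle and 1.02%, 0.976%, 0.815% and 0.682% with INT-767. The sums are made mostly of *Cps1* and *Ass1*, and the composition differed between treated mice: in mouse 1 *Cps1* was at 4871 CPM and *Otc* at 438 CPM, whereas in mouse 4 *Cps1* was at 2019.6 CPM and *Otc* at 699 CPM.

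The genes did not rank the mice alike. After subtraction of each group mean, log2 CPM over the 11 mice correlated highest between *Slc25a15* and *Gls2* (Pearson r = 0.884), *Otc* and *Slc25a15* (0.874) and *Nags* and *Asl* (0.86). It was lowest between *Slc25a15* and *Slc25a13* (−0.665), *Otc* and *Slc25a13* (−0.626) and *Slc25a15* and *Glul* (−0.62). Of the 36 pairs, 23 were above 0. These values are descriptions, since the points share libraries and the differences between libraries described above. *Otc*, *Slc25a15* and *Gls2* were all highest in vehicle mouse 1, then mouse 7, then mouse 2, and lowest in mouse 6, whereas *Slc25a13* and *Glul* were lowest in mice 1 and 7.

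**Figure D3:**
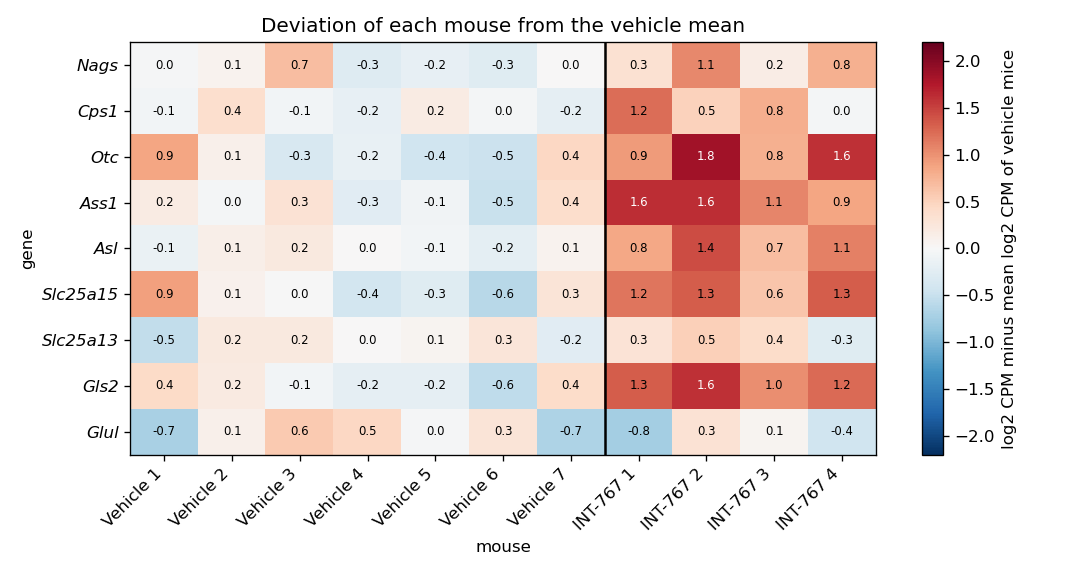
Log2 CPM of each gene (rows) in each mouse (columns) minus the mean over the 7 vehicle mice, as color and rounded number; the black line separates vehicle from INT-767. *Otc* and *Slc25a15* were raised in vehicle mouse 1, and *Cps1* stayed near the vehicle mean in INT-767 mouse 4.

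By the same measure over all tested genes, the gene most like *Ass1* was its pseudogene *Gm5424* (r = 0.95, log2 fold change 1.12). Those most like other genes were *Pex2* for *Otc* (0.989), *Nifk* for *Gls2* (0.977), *Creb3* for *Asl* (0.969), *Ranbp1* for *Slc25a15* (0.967), *Abca8b* for *Cps1* (0.965), *Hsd17b11* for *Glul* (0.947) and *Dnlz* for *Nags* (0.909). None of these 7 was itself called. *Ppp1r21* (0.965) was among the 3 genes most like *Slc25a13*. *Dus1l* (log2 fold change 0.62, adjusted *p* = 0.0336 in edgeR) was among the 3 genes most like both *Nags* and *Asl*. These are the highest of 13880 correlations for each gene over 11 mice, and the measure removes the difference between the groups.

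Genes that deliver nitrogen to the cycle by breaking down amino acids were then examined. Of 23 such genes, all tested, 6 were called higher and 0 lower, beside 5.04% and 4.68% of all genes, with a median log2 fold change of 0.55. Without treated mouse 2 the number higher was 3, where 1.14% of all genes were called higher, with the GC and length offset it was 11, where 7.76% were, and without vehicle mice 1 and 7 it was 9, with 1 lower (*Gpt2*), where 19.8% and 15.8% of all genes were called. *Hal*, which deaminates histidine, rose from 83.3 ± 19.9 to 326 ± 136 CPM (SD, n = 7 and 4; log2 fold change 1.97, SE 0.25, adjusted *p* = 0.00234 in edgeR). *Ftcd*, further along the same pathway, rose by 1.25 (SE 0.19, adjusted *p* = 0.00403 in edgeR) and *Sds*, which deaminates serine, by 1.08 (SE 0.31, adjusted *p* = 0.0454 in edgeR). *Hpd* of tyrosine breakdown rose by 0.99 (SE 0.19), *Aass* of lysine breakdown by 0.98 (SE 0.17), and the alanine transaminase *Gpt* by 0.69 (SE 0.14). The other alanine transaminase, *Gpt2*, was at 1222 ± 178 CPM with vehicle and 839 ± 182 CPM with INT-767, but did not pass the test (log2 fold change −0.54, SE 0.18, adjusted *p* = 0.0702 in edgeR). The mitochondrial glutamate dehydrogenase *Glud1*, which frees ammonia from glutamate, was at 1336 ± 222 CPM with vehicle and 1309 ± 57.1 CPM with INT-767 (log2 fold change −0.03, adjusted *p* = 0.904 in edgeR). *Oat*, which links ornithine to glutamate, had a log2 fold change of −0.09 (adjusted *p* = 0.891 in edgeR).

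Among transporters of glutamine, ammonia and related compounds, 9 of 14 were tested and 0 were called in either direction by edgeR (median log2 fold change 0.00). Of all genes 9.72% were called in either direction, so that 0 of 9 is near that share. At an unadjusted *p* under 0.05 in edgeR, 1 transporter was higher and 1 lower, beside 17.4% and 15.6% of all genes. DESeq2 called 1 transporter, where 10.4% of all genes were called higher and 9.86% lower. With limma-voom 0 were called, where these shares were 4.37% and 4.11%. *Slc38a3*, which carries glutamine into periportal hepatocytes, was at 910 ± 117 CPM with vehicle and 1238 ± 287 CPM with INT-767 (log2 fold change 0.44, adjusted *p* = 0.107 in edgeR). *Rhbg*, an ammonia channel of pericentral hepatocytes, had 59 counts over the 7 vehicle mice and 39 over the 4 treated mice and was not tested. Of 10 enzymes beside the cycle, 9 were tested, 2 were called higher and 0 lower (median 0.14), beside 5.04% and 4.68% of all genes. Of the 9, 0 were called higher without vehicle mouse 6 or without treated mouse 2, where 2.25% and 1.14% of all genes were. With library size only 0 were also called higher, where 2.38% of all genes were, and with limma-voom 1, where 4.37% were. Without vehicle mice 1 and 7 the endothelial nitric oxide synthase *Nos3* was called lower (−1.25, adjusted *p* = 0.019 in edgeR), where 15.8% of all genes were. *Car5a*, the mitochondrial carbonic anhydrase that gives CPS1 its bicarbonate, rose from 14.9 ± 2.80 to 25.6 ± 4.63 CPM (log2 fold change 0.77, SE 0.18, adjusted *p* = 0.0219 in edgeR), and the deacetylase *Sirt3* by 1.21 (SE 0.31, adjusted *p* = 0.0336 in edgeR). *Sirt5*, which removes acyl groups from CPS1, had a log2 fold change of 0.14 (adjusted *p* = 0.474 in edgeR).

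Of 12 genes for receptors and factors known to control urea cycle expression or to respond to bile acids, 4 were called higher and 0 lower, beside 5.04% and 4.68% of all genes, with a median of 0.47, and without vehicle mice 1 and 7 these numbers were 6 and 0, beside 19.8% and 15.8% of all genes. Leaving out 1 mouse gave 2 to 5 higher, with 2 without vehicle mouse 4, 5 or 6 or treated mouse 2 or 4, where between 1.14% and 3.3% of all genes were called higher. *Nr0b2* (SHP), a target of FXR, rose from 17.1 ± 5.92 to 49.7 ± 9.50 CPM (log2 fold change 1.54, SE 0.25, adjusted *p* = 0.00474 in edgeR), *Ppargc1a*, a coactivator of the fasting response, by 0.93 (SE 0.15, adjusted *p* = 0.00496 in edgeR), *Nr3c1*, the glucocorticoid receptor, by 0.60 (SE 0.16, adjusted *p* = 0.0329 in edgeR) and *Gcgr*, the glucagon receptor, by 0.54 (SE 0.14, adjusted *p* = 0.0328 in edgeR). *Nr1h4*, which encodes FXR, had a log2 fold change of −0.25 (adjusted *p* = 0.232 in edgeR).

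Other markers of the liver zones were set beside these results, because the cycle is periportal and *Glul* pericentral. Of all genes, 5.04% were called higher and 4.68% lower in the comparison of all 11 mice. Of 10 other periportal genes, 8 had fold changes above 0 and 2 below. Those below were *Pck1* (−0.03, adjusted *p* = 0.962 in edgeR) and *Cdh1* (−0.35, adjusted *p* = 0.403 in edgeR). Of the 10 genes, 5 were called higher and 0 lower (median 1.04). They were *Etnppl* (log2 fold change 2.38, SE 0.35, adjusted *p* = 0.00338 in edgeR), *Cyp2f2* (1.23, SE 0.21, adjusted *p* = 0.00592 in edgeR) and *Hal*, *Ftcd* and *Sds*, which also count among the amino acid genes above. Of 14 pericentral genes, 13 were tested, 0 were called higher and 1 lower, the Wnt feedback inhibitor *Rnf43* (−0.77, SE 0.21, adjusted *p* = 0.0381 in edgeR), with a median of −0.23, so that the share called lower was near that of all genes. Of the 13 fold changes 9 were below 0 and 4 above, among them *Gulo* of ascorbate synthesis (0.45, adjusted *p* = 0.139 in edgeR) and *Cyp1a2* (0.43, adjusted *p* = 0.454 in edgeR). Without vehicle mice 1 and 7, 6 periportal genes were called higher and 4 pericentral genes lower (*Cyp2e1*, *Axin2*, *Tbx3* and *Rnf43*), in a fit that called 19.8% of all genes higher and 15.8% lower. Leaving out 1 mouse gave 0 to 2 pericentral genes lower, with 0 in 8 of the 11 fits. These 11 fits called between 0.767% and 9.86% of all genes lower. They gave 0 to 1 pericentral genes higher, the 1 (*Gulo*) without treated mouse 1, where 7.2% of all genes were called higher.

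**Figure D4:**
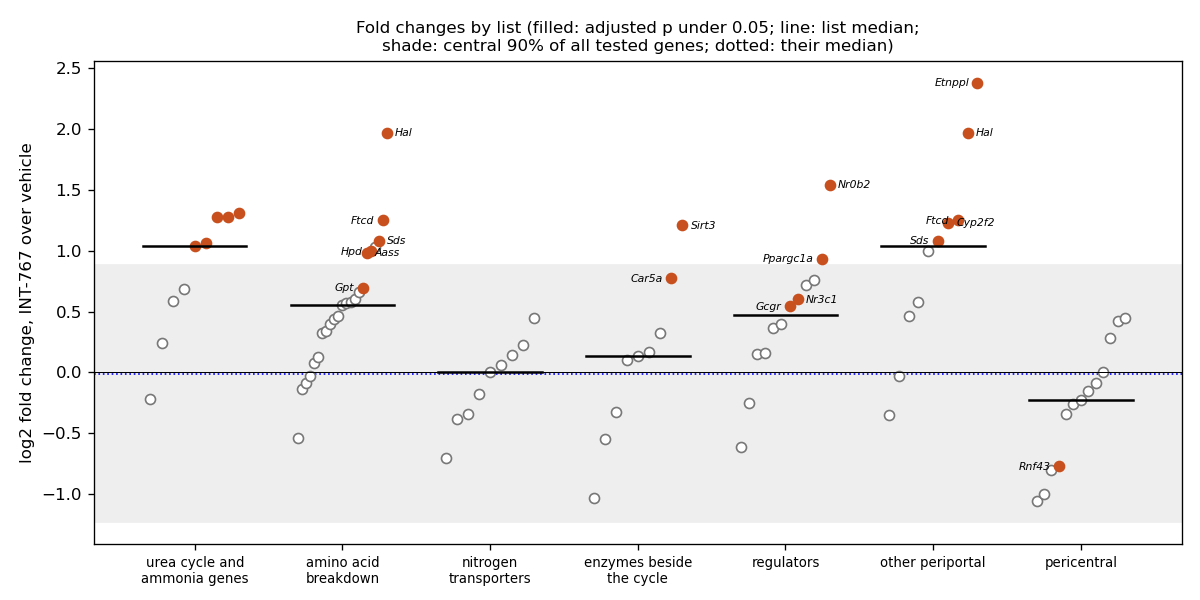
Log2 fold change, INT-767 over vehicle (y axis), of each tested gene of 7 lists (x axis); filled points have an edgeR adjusted *p* under 0.05, black lines are list medians, and the shade spans the central 90% of all tested genes (−1.23 to 0.88). The medians were highest for the 9 urea cycle and ammonia genes (1.04) and for other periportal genes (1.04), and lowest for pericentral genes (−0.23).

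The counts of cell-type markers called by edgeR are to be read against the 5.04% of all genes called higher and 4.68% called lower. Hepatocyte markers, 7 of a list of 8 by their symbols, were the most abundant list in every library, with *Alb* the highest of them in each mouse. Their sum was 59983 to 79217 CPM with vehicle and 107510, 111017, 91307 and 62931 CPM with INT-767, so that treated mouse 4 was within the range of the controls, and 1 of 7 markers, *Serpinc1*, was called higher (log2 fold change 0.98, SE 0.20, adjusted *p* = 0.0127 in edgeR). Of the 7 fold changes 6 were above 0 and 1 below, with a median of 0.22. Of 8 stellate cell and myofibroblast markers, 2 were called lower (*Col1a1* and *Pdgfrb*) and 0 higher, with 5 fold changes below 0, 3 above 0 (*Dcn*, *Lum* and *Lrat*, none called) and a median of −0.55. Their sum, with *Dcn* the most abundant, was 823 to 1536 CPM with vehicle and 609, 743, 758 and 1343 CPM with INT-767. Of 8 macrophage markers, 2 were called lower (*Cd68* and *Csf1r*) and 0 higher, with 7 fold changes below 0, 1 above 0 and a median of −1.04. Their sum, with *Cd5l* the most abundant, was 519 to 725 CPM with vehicle and 358, 367, 290.5 and 713 CPM with INT-767. Cholangiocyte (6 of 6 tested), endothelial (6 of 6), lymphocyte (5 of 6) and neutrophil (2 of 4) markers had 0 calls in edgeR. At an unadjusted *p* under 0.05 in edgeR, 4 cholangiocyte, 3 endothelial, 1 lymphocyte and 0 neutrophil markers were lower and 0 higher. At this threshold 3 hepatocyte markers were higher and 0 lower, and 4 stellate and 5 macrophage markers were lower and 0 higher. Of all genes, 17.4% were higher and 15.6% lower. DESeq2 called 3 cholangiocyte, 1 endothelial, 0 lymphocyte, 0 neutrophil, 3 hepatocyte, 3 stellate and 5 macrophage markers. It called 10.4% of all genes higher and 9.86% lower. Without vehicle mice 1 and 7, where 15.8% of all genes were called lower, edgeR called *Sox9* of the cholangiocyte, *Pecam1*, *Stab1* and *Stab2* of the endothelial (−0.85, −1.70 and −1.27) and *Cd3e* of the lymphocyte markers lower, and *Col3a1* and *Gpnmb* joined the stellate and macrophage markers called lower. In the comparison of all 11 mice, the median log2 fold changes of the cholangiocyte, endothelial, lymphocyte and neutrophil markers were −0.62, −0.50, −0.26 and 0.38. The cholangiocyte sum, with *Spp1* the most abundant, was 735 to 1937 CPM with vehicle and 356, 589, 810.1 and 1359.6 CPM with INT-767, and the endothelial sum was 109.7 to 307 CPM and 176, 102, 144.5 and 86.5 CPM. Lymphocyte markers summed to at most 12.7 CPM and neutrophil markers to at most 11.2 CPM with vehicle, and neutrophil markers reached 26.0 CPM in treated mouse 4. Some mice had 0 counts of a neutrophil marker, *Ly6g* or *Retnlg* or both, and no marker of the other types was at 0 in any mouse. The part of these markers in the change of the urea cycle genes was not tested.

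Measures of library composition were set beside the comparison too. Reads of the mitochondrial genome made up 3.35% to 5.74% of the counts with vehicle, highest in mouse 1, and 5.59%, 6.87%, 4.43% and 6.63% with INT-767. The GC content of the counted genes, weighted by counts, was 48.1% to 49.9% with vehicle, lowest in mouse 1, and 48.5%, 48.1%, 49.1% and 48.1% with INT-767. With an offset that takes out the trend of each library over GC content and transcript length, 7 of the 9 genes were called higher, compared with 7.76% of all genes, with *Cps1* (log2 fold change 0.86, adjusted *p* = 0.00703) and *Nags* (0.73, adjusted *p* = 0.0358) added in edgeR.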

How the data were processed

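Liver mRNA of 11 mice, grouped by the sample labels, was analysed. According to the methods, the authors made stranded libraries, sequenced them for 75 cycles and aligned reads to GRCm38 (Ensembl 84) with STAR 2.5.2a; the submitters' processing notes name STAR 2.4.0. The deposited values are raw read counts per gene. How reads were counted, and whether by strand, is not given in the sources used here, so that reads of antisense partners cannot be told apart.

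Counts were analysed in R 4.3.3 with edgeR 4.0.16: TMM factors, filterByExpr defaults (minimum count 10, minimum total 15) and the quasi-likelihood test (glmQLFit robust, glmQLFTest) on treatment alone, Benjamini-Hochberg adjustment over 13880 genes, threshold 0.05. The exact Mann-Whitney test enumerated all 330 assignments of mice; for *Ass1*, *Asl* and *Gls2* its *p* adjusted over all tested genes was 0.0807. RPKM used union exon lengths of GENCODE M21. CPM rest on 7381211 to 16022459 counts per mouse. The *p*-values compare the groups relative to the variation between mice, in the Mann-Whitney test by ranks alone. The genes and lists were chosen with earlier results of these data known. Some genes chosen by these rules are not reported here. All 9 genes were named whatever their values, with up to 6 called genes per list and 8 set genes; *Gm11586*, *Spryd4*, *Serpinc1*, *Col1a1*, *Pdgfrb*, *Cd68*, *Csf1r*, *Gpt2*, *Cyp2e1*, *Axin2*, *Tbx3*, *Lum*, *Lrat*, *Gulo*, *Cyp1a2*, *Nos3*, *Sox9*, *Pecam1*, *Stab1*, *Stab2*, *Cd3e*, *Col3a1* and *Gpnmb* were added after their values were seen, as called, overlapping or opposite-direction genes. *Pck1* and *Cdh1* were added in the same way, as opposite-direction genes. Likeness was the Pearson correlation of log2 CPM (prior count 2) after subtraction of group means. Promoters came from RefSeq.

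Alternatives were other scaling factors, filters, a GC and length offset (lowess, span 0.3), leaving out each mouse, the replicate number as a block, DESeq2 1.42.0 and limma-voom (limma 3.58.1). The scripts were tested on simulated data. Figures used matplotlib 3.10.9.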

Additional observations from a re-analysis of the deposited data

Results flagged for a closer look

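*Nags* in vehicle mouse 3 lay far from the other controls, at 72.36 CPM compared with 37.3 to 47.7 CPM in the other 6, a gap of 0.703 of the whole range. Without this mouse the log2 fold change of *Nags* was 0.73 and it was called (adjusted *p* = 0.0414 in edgeR), whereas with all mice it was not (0.59, adjusted *p* = 0.0883). Gaps were checked in 18 sets of values, 9 genes in each group. For 7 values, chance alone gives a gap above the threshold of 0.568 in about 1 set in 20. A flag among 18 sets can therefore arise by chance.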

How the results depend on the processing

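The direction of all 9 genes was the same in all 23 alternatives. *Ass1*, *Asl* and *Gls2* were called in 21 of 23, all but the 2 fits with the block, *Otc* in 20, *Slc25a15* in 15, *Cps1* in 4, *Nags* in 2, and *Slc25a13* and *Glul* in 0. *Cps1* was called by DESeq2 (adjusted *p* = 0.0164), limma-voom with sample weights (0.0154), with the offset (0.00703) and without INT-767 mouse 4 (0.0215 in edgeR). The causes were not tested. With the mouse's number as a replicate block, 0 genes were called higher, 0 lower and 0 of the 9 higher, and likewise with the block and the offset together; at an unadjusted *p* under 0.05 the block gave 1347 genes and 5 of the 9. The labels give only a number, and deviations of same-numbered mice correlated by −0.69, 0.215, 0.148 and −0.482. Of the 4 INT-767–treated mice, 0 correlated best with the vehicle mouse of its own number. These values gave no sign that the numbers pair the mice, but 4 pairs cannot exclude it.

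The numbers of all genes called higher and lower, 700 and 649, were 331 and 1026 with library size only, 1443 and 1368 with DESeq2, 1658 and 1221 with limma-voom and sample weights, and 2701 and 2160 without vehicle mice 1 and 7, and 1073 were higher with the offset. Leaving out 1 mouse gave 164 to 1906 higher and 110 to 1370 lower, the fewest without INT-767 mouse 2 and the most without vehicle mouse 1, and 3 to 5 of the 9 genes higher, with 3 without INT-767 mouse 2. The number of the 9 with an exact Mann-Whitney *p* under 0.05 was 5 to 7 with 1 mouse left out. With library size only the median log2 fold change of all genes was −0.22, and 24.4% of the called genes were higher, compared with 51.9% with TMM and 36.5% with upper-quartile factors. *Glul*, at −0.44 with library size only, was then below that median, and the other 8 genes were above 0.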
